A study of Drosophila melanogaster with 8 samples.

Results

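The E2F and RB genes of Drosophila melanogaster were followed with the microRNA hairpins that lie inside one of them. The genes are E2f1, E2f2, Dp, Rbf and Rbf2, and the hairpins are mir-11 and mir-998. They were chosen by name, with no measured value, and make up 7 of the 15682 genes counted. All 7 have a row in every library, and 6 passed the filter on low counts, mir-11 being the exception. The tissue was the larval eye disc of the third instar, one of the epithelial sacs that form the adult eye and antenna, in pools of 30 to 50 discs per sample at 25 °C. The 8 libraries were 2 biological replicates of each of 4 stocks, and total counts ran from 11929158 to 19670470 per library.

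The stocks are the wild-type strain Canton S, the stock mir-11 KO(w-), and 2 stocks of the mir-11 and mir-998 region named RMCE-1 and RMCE-2. The KO label names a loss of mir-11, and (w-) commonly marks flies without a working white eye colour gene. RMCE is the usual short form of recombinase-mediated cassette exchange, a way to put a chosen sequence into a fixed site. The labels do not say which sequences were placed. They also do not give the strain background of the stocks other than Canton S. In comparisons with Canton S, background and the change at the mir-11 and mir-998 region therefore cannot be told apart. The series asks what changes when miR-998 is left unchecked, without saying which stock carries that state. Age within the instar and sex are not given either.

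E2F proteins bind DNA as partners of Dp and switch genes of the cell cycle. In flies E2f1 is mainly an activator that drives entry into S phase, and E2f2 is a repressor. RB family proteins hold E2F in check until cyclin-dependent kinases phosphorylate them. Rbf binds both E2f1 and E2f2, whereas Rbf2 is known to pair with E2f2. In the eye disc, cells halt in the morphogenetic furrow and then pass through a last patterned division behind it, which depends on this circuit. E2f1 also sensitises cells to apoptosis. miR-11 is reported to limit that activity by repressing the cell death genes rpr, hid, grim and skl, and miR-998 is reported to repress Cbl, a negative regulator of EGFR signalling.

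E2f1 (FBgn0011766) spans 21620304 to 21660871 on the minus strand of chromosome arm 3R in BDGP6.54 (Ensembl release 115), whereas the sources used here do not name the build used for counting. It has 6 annotated transcripts, and in all of them the last intron is the same stretch of 1115 bases. The mir-11 hairpin (FBgn0262434, 3R 21622497 to 21622571, 75 bases) begins 240 bases into that intron. The mir-998 hairpin (FBgn0262405, 3R 21621879 to 21622021, 143 bases) begins 790 bases into it and ends 182 bases before the last exon. Both are read in the direction of E2f1, and 475 bases separate them. Neither hairpin shares bases with an exon of E2f1.

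**Figure D1:**
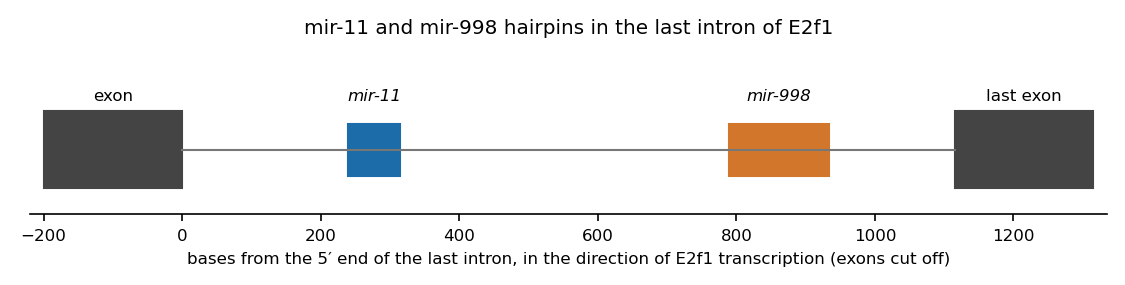
Map of the last E2f1 intron, to scale, with the position along the intron in bases on the x axis; exons are cut off. mir-11 lies near the 5′ end of the 1115-base intron and mir-998 near its 3′ end, 475 bases apart.

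The other members lie elsewhere. Rbf2 (FBgn0038390) spans 15965446 to 15968138 on the plus strand of 3R as a single exon. E2f2 (FBgn0024371) lies on the minus strand of 2L from 21154293 to 21156749, Rbf (FBgn0015799) on the minus strand of X from 797090 to 801479, and Dp (FBgn0011763) on the plus strand of 2R from 13222433 to 13228202. Reads of overlapping genes cannot be told apart with certainty, because the sources do not give the strand setting of the counting. Of the exon bases of E2f2, 19.9% overlap the oppositely read Mpp6, which stood at 4.12 to 6.67 CPM (counts per 1000000 counts in tested genes, scaled for library composition). E2f1 shares 283 exon bases (4.39%) with the oppositely read asRNA:CR46055, which has no row among the genes counted. The overlaps of Dp with Fsn (27 bases) and of Rbf2 with mor (5 bases) are small, and Rbf has none.

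Every library carried the RNA of an eye disc. All 8 eye disc markers (ey, toy, eya, so, dac, gl, elav and ato) were detected in each library and summed to 1140 to 1340 CPM, and the antennal markers Dll, ct and hth summed to 908 to 1110 CPM. Transcripts of attached tissues differed far more. The 6 fat body markers (larval serum and fat body proteins) ran from 47.9 to 7410 CPM in sum, with Lsp1gamma at 0 in 1 RMCE-2 library and every other marker detected throughout. The 6 salivary glue genes ran from 2.85 to 3950 CPM in sum, lowest in RMCE-2 at 11 and 2.85 CPM. DESeq2 called all 6 of them lower in RMCE-2 than in Canton S, whereas edgeR called 0, with 1 at an unadjusted p under 0.05. RMCE-1 replicate 2 was highest in both, so members were also compared without it. The 4 hemocyte markers summed to 141 to 457 CPM, with RMCE-2 lowest and Canton S replicate 2 highest. Of these Pxn, an extracellular matrix peroxidase, was called lower in mir-11 KO(w-) and RMCE-2 than in Canton S (log2 fold change -0.87 and -1.59, edgeR adjusted p = 0.0319 and 0.00545) and in RMCE-2 than in RMCE-1 (-1.17, 0.0252), and NimC1 higher in mir-11 KO(w-) than in Canton S (1.49, 0.0332). The Pxn call in mir-11 KO(w-) was lost in 8 of 16 other settings (adjusted p up to 0.241), among them each fit without a library of mir-11 KO(w-), RMCE-1 or RMCE-2 or without Canton S replicate 2. That in RMCE-2 against RMCE-1 was lost in 6 (up to 0.165), without any 1 library of the 3 stocks other than Canton S, and that in RMCE-2 against Canton S in 1, without RMCE-2 replicate 1 (0.0675). The NimC1 call was lost in 5 (up to 0.218), without Canton S replicate 1 or any 1 library of mir-11 KO(w-) or RMCE-2. DESeq2 called further hemocyte markers, among them Hml lower in RMCE-2 than in Canton S (-1.37, 2.5e-07). NimC1 went the other way and was called higher by DESeq2 in RMCE-1 and RMCE-2 than in Canton S (1.26 and 1.27, adjusted p = 0.0114 and 0.0132). Of the antennal list, ct was called lower in mir-11 KO(w-) and RMCE-1 than in Canton S (-0.39 and -0.62, edgeR adjusted p = 0.0268 and 0.0057). It was called higher in RMCE-2 than in RMCE-1 (0.61, edgeR adjusted p = 0.0169). Dll and hth did not share these calls. Against Canton S, Dll differed by log2 0.30 in mir-11 KO(w-) and 0.02 in RMCE-1, and hth by -0.04 and -0.13. The first of these ct calls was lost in 7 of 16 other settings (up to 0.196), without any 1 library of Canton S or mir-11 KO(w-) among them, the second in 1 (0.0516) and the third in 5 (up to 0.129), without any 1 library of mir-11 KO(w-) or RMCE-2 among them. Of the eye disc markers edgeR called dac in the test over all 4 stocks and none in a pair, whereas DESeq2 called dac also lower in RMCE-1 than in Canton S (adjusted p = 0.0414) and lower in both RMCE stocks than in mir-11 KO(w-) (0.0018 and 0.00272). The part of these tissues in the results on the members was not tested. In such bulk RNA, fewer cells of a type and less RNA per cell cannot be told apart.

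Levels of the members relative to each other were compared per kb of annotated exon, so that long and short genes can be set side by side. Dp, the shared DNA-binding partner, stood highest at a mean of 59.2 CPM per kb over the 8 libraries. The activator E2f1 followed at 32.7, the repressor E2f2 at 21.1 and Rbf at 19.3 CPM per kb. Rbf2 stood at 7.15 CPM per kb, 2.7-fold below Rbf. Dp thus lay 1.81-fold above E2f1 and E2f1 1.55-fold above E2f2, each order holding in 8 of 8 libraries.

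E2f2 and Rbf were nearest to each other. Their ratio of means was 1.09, and E2f2 was the higher of the pair within 8 of 8 libraries, yet their ranges over libraries overlapped, E2f2 going down to 19.6 and Rbf up to 20.0 CPM per kb. The intronic stretch of mir-998 carried 7.04 CPM per kb, close to the exons of Rbf2, and Rbf2 was higher in 5 of 8 libraries. The observed order differed by stock: mir-998 lay below Rbf2 in all 4 libraries of mir-11 KO(w-) and RMCE-1 (4.49 to 6.28 CPM per kb) and above it in both of RMCE-2 (9.65 and 12.1 CPM per kb), and the Canton S libraries were split. These values rest on 9 to 31 mir-998 reads per library, and the order was not tested. mir-11, with 3 reads in 8 libraries, lay too near 0 for a ratio to be given.

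**Figure D2:**
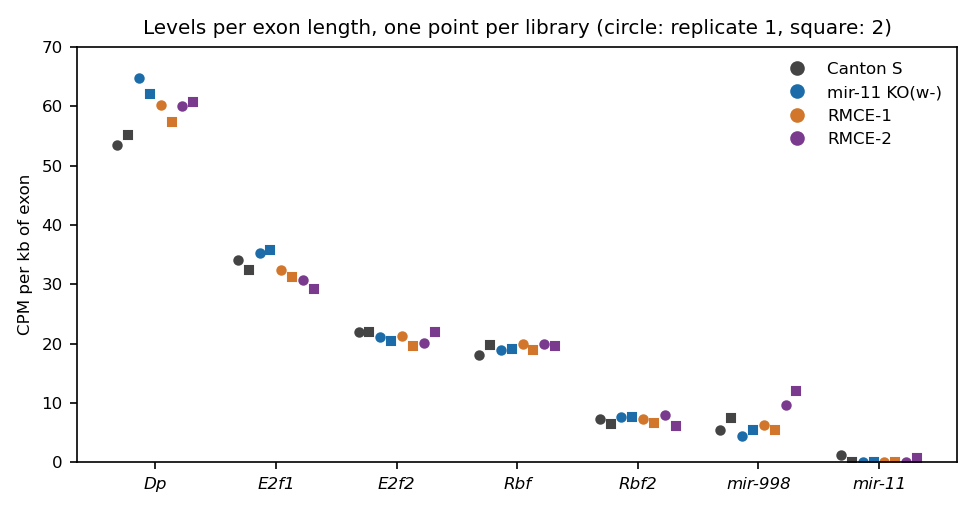
Level of each gene in CPM per kb of exon (y axis, from 0), with 1 point per library coloured by stock; circles are replicate 1 and squares replicate 2. Dp is highest in every library, E2f2 and Rbf lie at about the same height, and mir-998 is highest in the 2 RMCE-2 libraries.

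E2f1, the host of both hairpins, was measured at 220 and 210 CPM in Canton S, at 228 and 230 in mir-11 KO(w-), then at 209 and 201 in RMCE-1 and finally at 198 and 189 in RMCE-2. Both RMCE-2 libraries were the lowest and both mir-11 KO(w-) libraries the highest, and no pair of stocks overlapped. In a single pair 39.5 to 59.3% of all genes were separated in this way, and the share separated in all 6 pairs was not computed. The distance was small: the highest library lay 1.22-fold above the lowest. Stock means were 215 ± 7.39, 229 ± 1.79, 205 ± 5.3 and 194 ± 6.81 CPM (SD, n = 2).

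RMCE-2 against mir-11 KO(w-) gave E2f1 its largest difference, a log2 fold change of -0.24 (SE 0.06, 95% interval -0.38 to -0.11), with an edgeR quasi-likelihood adjusted p of 0.151. E2f1 therefore did not pass the threshold of 0.05 after Benjamini-Hochberg adjustment over the 11068 genes tested, although its unadjusted interval left out 0 in 3 of the 6 pairs of stocks. Against Canton S its log2 differences were 0.09 in mir-11 KO(w-), -0.07 in RMCE-1 and -0.15 in RMCE-2. With each pair read in a single direction, the intervals over all 6 pairs ran from a fold of 0.768 to a fold of 1.17. The lower end was that of RMCE-2 against mir-11 KO(w-), and the upper end that of mir-11 KO(w-) against Canton S. Read the other way round these folds invert, so 1.17 is not a limit on gains. The joint comparison of all 4 stocks gave E2f1 an adjusted p of 0.141 (edgeR quasi-likelihood F test).

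E2f2, the repressor, was measured at 43.9 and 44.0 CPM in Canton S, at 42.2 and 41.1 in mir-11 KO(w-), then at 42.5 and 39.3 in RMCE-1 and finally at 40.2 and 44.1 in RMCE-2. The lowest library was RMCE-1 replicate 2 and the highest RMCE-2 replicate 2, and stocks overlapped in 4 of 6 pairs. Its spread over the 8 libraries was 4.36% of the mean, against 3.86% from counting alone. Log2 fold changes ran from -0.10 to 0.04, with intervals from a fold of 0.826 to 1.16 and edgeR adjusted p of at least 0.433.

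The activator and repressor were also set against each other within each library, which removes library scaling. E2f1 per kb was 1.55 and 1.48 times E2f2 in Canton S, 1.68 and 1.74 times in mir-11 KO(w-), then 1.53 and 1.59 times in RMCE-1 and finally 1.53 and 1.33 times in RMCE-2. The mir-11 KO(w-) libraries had the highest ratios and RMCE-2 replicate 2 the lowest. The ratio was described without a test.

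Dp, the partner that E2F proteins need to bind DNA, was measured at 171 and 177 CPM in Canton S, at 207 and 199 in mir-11 KO(w-), then at 193 and 183 in RMCE-1 and finally at 192 and 194 in RMCE-2. Both Canton S libraries were below all 6 libraries of the other stocks. Against Canton S the log2 fold changes were 0.22 in mir-11 KO(w-) (SE 0.06, 95% interval 0.09 to 0.36), 0.11 in RMCE-1 and 0.15 in RMCE-2. The edgeR adjusted p was 0.0799, 0.285 and 0.211, so Dp was called in none of them. These 3 comparisons share the Canton S libraries. Among the 3 other stocks Dp differed by log2 -0.11 to 0.04.

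E2f1 and Dp form one dimer, and their ratio moved with both genes. E2f1 per kb was 63.8% and 58.8% of Dp in Canton S, 54.5% and 57.5% in mir-11 KO(w-), then 53.7% and 54.4% in RMCE-1 and finally 51.3% and 48.2% in RMCE-2. Canton S libraries were the highest and RMCE-2 libraries the lowest.

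Rbf, the main RB protein of the fly, was measured at 65.4 and 71.6 CPM in Canton S, at 68.8 and 69.4 in mir-11 KO(w-), then at 72.4 and 68.6 in RMCE-1 and finally at 71.9 and 71.1 in RMCE-2. The Canton S replicates lay almost as far apart as any 2 libraries, and stocks overlapped in 5 of 6 pairs. Its spread was the smallest of the members at 3.34% of the mean, with 2.98% from counting alone. Log2 fold changes ran from 0.01 to 0.06, with intervals from a fold of 0.906 to 1.16 and edgeR adjusted p of at least 0.662.

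Rbf2, the second RB protein, was measured at 19.6 and 17.6 CPM in Canton S, at 20.7 and 20.7 in mir-11 KO(w-), then at 19.7 and 17.9 in RMCE-1 and finally at 21.3 and 16.6 in RMCE-2. The highest and the lowest library were both RMCE-2, so the spread within that stock covered the whole range. Log2 fold changes ran from -0.13 to 0.15, with intervals from a fold of 0.733 to 1.38 and edgeR adjusted p of at least 0.567. These intervals are wider than those of Rbf, and Rbf2 rested on 209 to 397 counts per library.

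**Figure D3:**
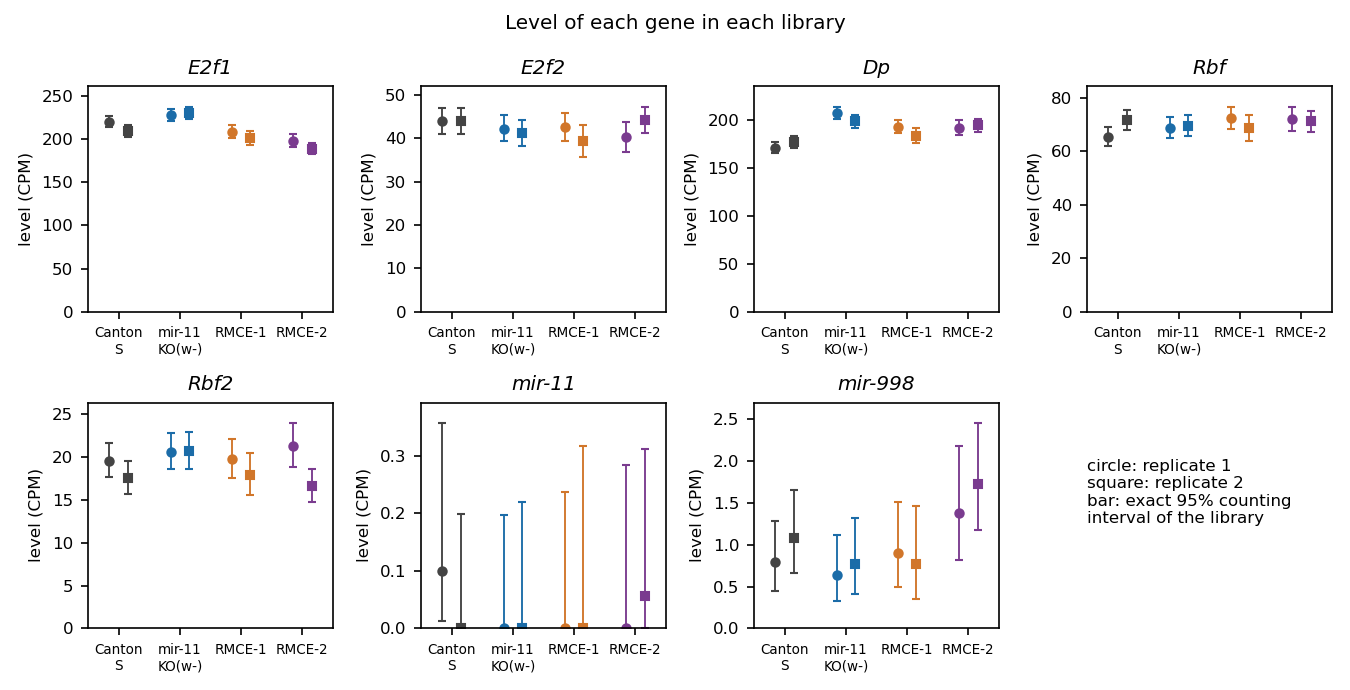
Level in CPM (y axis from 0, own scale per gene) in each library of each stock; bars are exact 95% counting intervals of a single library. E2f1 runs from 189 to 230 CPM with RMCE-2 lowest, Dp is lowest in Canton S at 171 and 177 CPM, and mir-998 is highest in RMCE-2.

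mir-998, the hairpin nearer the end of the intron, had 16 and 20 reads in Canton S, 12 and 13 in mir-11 KO(w-), then 14 and 9 in RMCE-1 and finally 18 and 31 in RMCE-2. As levels in CPM these were, in the same order, 0.789 and 1.07, 0.642 and 0.772, 0.897 and 0.772, then 1.38 and 1.73. Both RMCE-2 libraries were above all 6 others. Reads of total RNA over a hairpin can come from the unspliced E2f1 intron as well as from the precursor, and such libraries do not measure the mature microRNA.

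The level of mir-998 in RMCE-2 had a log2 fold change of 1.14 against mir-11 KO(w-) (SE 0.37, 95% interval 0.27 to 2.01), 0.89 against RMCE-1 (SE 0.37) and 0.74 against Canton S (SE 0.36). The edgeR adjusted p was 0.255, 0.306 and 0.315, and none was called. The mir-11 KO(w-) stock kept reads over mir-998, with a log2 fold change of -0.39 against Canton S (SE 0.37, 95% interval -1.28 to 0.49). With 133 reads in all, the intervals over the 6 pairs ran from a fold of 0.412 to a fold of 4.03. Unlike these edgeR intervals, limits and intervals taken from the counts of 1 library leave out the spread between replicates. They cover counting error only, and incompletely, because PCR copies of a molecule are not independent.

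mir-998 was also counted relative to its host gene within each library. Per 1000 E2f1 reads it had 3.59 and 5.13 reads in Canton S, 2.82 and 3.35 in mir-11 KO(w-), then 4.3 and 3.83 in RMCE-1 and finally 6.96 and 9.16 in RMCE-2. RMCE-2 was again above all other libraries, at 2.61 times the mean of mir-11 KO(w-), 1.98 times that of RMCE-1 and 1.85 times that of Canton S. A two-sided exact permutation test gave p = 0.333 for each of these 3 ratios, which is the smallest p that 2 libraries against 2 allow, so the design cannot reach 0.05. E2f1 was lowest where mir-998 was highest: over the 8 libraries their log2 CPM had a Pearson r of -0.832 and a Spearman rho of -0.69, as a description of libraries that share stocks.

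mir-11 had 2 and 0 reads in Canton S, 0 and 0 in mir-11 KO(w-), then 0 and 0 in RMCE-1 and finally 0 and 1 in RMCE-2. At the density of reads over mir-998, 18.9 reads would have fallen on its 75 bases in Canton S, where 2 were counted. Over all libraries the same figure is 69.8, against 3 counted. That figure includes a stock labelled as lacking mir-11 and stocks whose sequence there is not given. A count of 0 allows up to 3 reads, or 0.161 CPM in Canton S replicate 2 and 0.161 and 0.178 CPM in the mir-11 KO(w-) libraries. The loss named by the KO label was therefore not detectable at this depth, with so few reads also in Canton S. No fold is given, because all stocks were at or under that limit.

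The calls among the members were set beside those among all genes. Of the 6 tested members, 0 were called in each of the 6 comparisons and 0 in the 4-stock test. The edgeR quasi-likelihood test called 4.75% of all genes between mir-11 KO(w-) and Canton S, 6.06% between RMCE-1 and Canton S and 3.60% between RMCE-2 and Canton S. It called 0.352% between RMCE-1 and mir-11 KO(w-), 0.578% between RMCE-2 and mir-11 KO(w-), 1.68% between RMCE-2 and RMCE-1, and 5.48% in the 4-stock test. With only 6 members, a count of 0 lies near these shares and is no result about the members. The same holds for a count of 0 in the short lists read below. DESeq2 called 0 members as well. At an unadjusted p under 0.05, 1, 0, 2, 1, 2 and 1 of the 6 members passed in the comparisons in the order just given, where 20.9, 23.2, 19.4, 9.03, 13.2 and 16.0% of all genes did.

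Libraries of the stocks compared did not overlap for 5 of the 6 members between mir-11 KO(w-) and Canton S, where 59.3% of all genes did not. The numbers were 3 members against 51.7% of genes for RMCE-1 and 3 against 51.4% for RMCE-2, both relative to Canton S. They were 3 against 39.5% for RMCE-1 and 4 against 50.3% for RMCE-2 relative to mir-11 KO(w-), and 2 against 41.8% between the RMCE stocks. With 2 libraries per stock such separation was common across the genome.

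**Figure D4:**
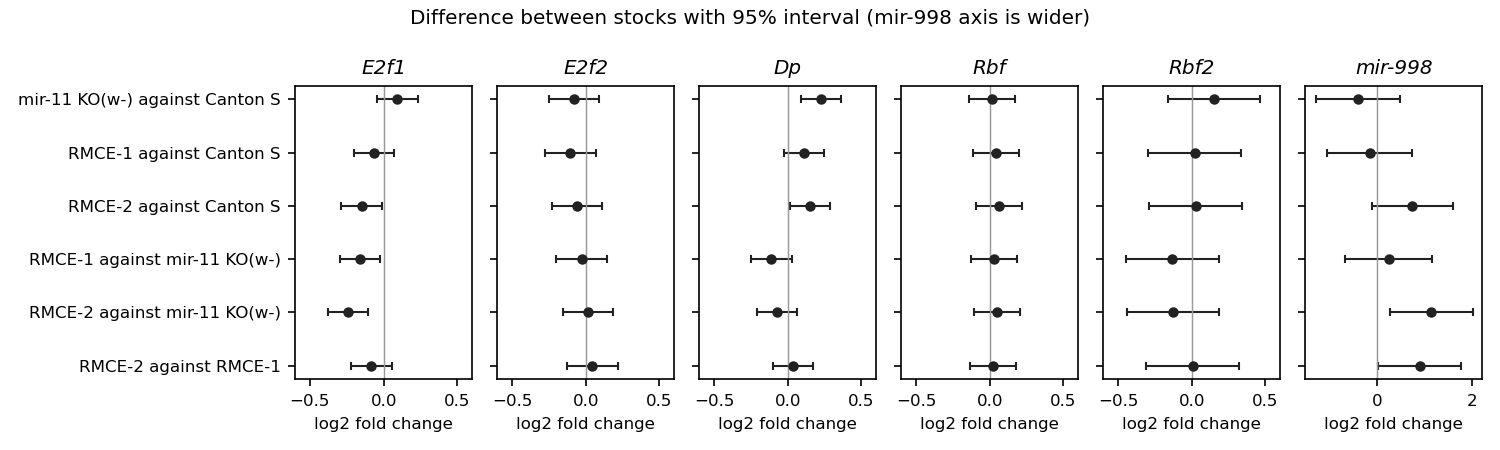
Log2 fold change (x axis) of the 6 tested members in each of the 6 pairs of stocks, with unadjusted 95% intervals; the axis of mir-998 is wider. All points of E2f2, Rbf and Rbf2 have intervals that include 0, whereas those of E2f1 and Dp leave it out in 3 and 2 pairs and that of mir-998 in 2.

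The protein partners of the members were then read from fixed lists. The dREAM or MMB complex joins E2f2, Dp and Rbf or Rbf2 to Myb and the mip proteins and keeps many E2F target genes silent. Of 8 further subunits and partners, edgeR called lin-52 lower in mir-11 KO(w-), RMCE-1 and RMCE-2 relative to Canton S, and HDAC1, a histone deacetylase, in RMCE-1. DESeq2 called HDAC1 lower in mir-11 KO(w-) as well (log2 fold change -0.33, adjusted p = 0.00799, against 0.0702 by edgeR). Myb, mip40, mip120, mip130, Caf1-55 and l(3)mbt were called in no comparison by either tool. The median log2 fold change of the list was 0.02, -0.09 and -0.11 in the 3 comparisons with Canton S, and the median of all genes was 0.01, 0.01 and 0.00.

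lin-52, a small subunit of that complex, stood at 22.4 and 21.5 CPM in Canton S, at 13.2 and 11.9 in mir-11 KO(w-), then at 12.6 and 12.8 in RMCE-1 and finally at 11.6 and 12.4 in RMCE-2. Both Canton S libraries were above all others. The log2 fold changes were -0.81 (SE 0.10), -0.79 (SE 0.10) and -0.87 (SE 0.10), with edgeR adjusted p of 0.00673, 0.0083 and 0.00614, in comparisons that share Canton S. The edgeR test called 2.39%, 3.22% and 1.60% of all genes lower in these comparisons, and 2.37%, 2.85% and 2.00% higher. On the opposite strand CG15772 covers 47.9% of the lin-52 exon bases, and it stood at 10.8 and 11.1 CPM in Canton S against 0.594 to 2.4 CPM in the other 6 libraries. CG15772 was called lower in the same 3 comparisons (log2 fold change -3.44, -3.16 and -2.57, edgeR adjusted p = 0.0097, 0.0128 and 0.0248). Since the strand setting is not given, reads of the pair cannot be told apart, and the part of CG15772 in the fall of lin-52 was not tested.

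The calls of lin-52 were lost in 2, 2 and 1 of 16 other settings, with adjusted p up to 0.091, 0.0989 and 0.0605. These were the fits without either mir-11 KO(w-) replicate (0.065 and 0.091), without Canton S replicate 1 (0.055) or without both it and RMCE-1 replicate 2 (0.0989), and without RMCE-2 replicate 1 (0.0605).

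Cyclins and kinases act upstream by phosphorylating RB proteins. The list of 13 genes read here also holds other cell cycle regulators, among them stg, Rca1, ago and CycB3, which do not act on Rbf directly. By edgeR 2 of the 13 were called higher in mir-11 KO(w-) than in Canton S, 1 higher and 1 lower in RMCE-1, and 1 higher in RMCE-2. All were among these 4 genes. Of all genes, edgeR called 2.37% higher in mir-11 KO(w-), 2.85% higher and 3.22% lower in RMCE-1, and 2.00% higher in RMCE-2, each relative to Canton S. String (stg), the Cdc25 phosphatase that triggers mitosis, stood at 186 and 207 CPM in Canton S, at 279 and 289 in mir-11 KO(w-), then at 286 and 259 in RMCE-1 and finally at 247 and 231 in RMCE-2. Canton S libraries were the lowest. The log2 fold change of stg was 0.53 (SE 0.08) in mir-11 KO(w-) and 0.47 (SE 0.08) in RMCE-1, with edgeR adjusted p of 0.0148 and 0.0213. These calls were lost in 3 and 7 of 16 other settings, with adjusted p up to 0.172 and 0.121. In mir-11 KO(w-) these were the fits without Canton S replicate 1 (0.0926) and without either mir-11 KO(w-) replicate (0.127 and 0.172). In RMCE-1 they included those without Canton S replicate 1 (0.121), without either mir-11 KO(w-) replicate (0.0723 and 0.0744) and without RMCE-1 replicate 1 (0.0536).

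Rca1, an inhibitor of the anaphase-promoting complex, rose in mir-11 KO(w-) (log2 fold change 0.34, edgeR adjusted p = 0.049). ago, which encodes an F-box protein that targets Cyclin E for degradation, fell in RMCE-1 (-0.36, 0.0289), and the mitotic cyclin CycB3 rose in RMCE-2 (0.34, 0.0426), all relative to Canton S. These calls were fragile, lost in 13, 8 and 11 of 16 other settings, and that of HDAC1 in RMCE-1 (-0.35, edgeR adjusted p = 0.0459) in 11. The kinases and cyclins that act on Rbf directly, CycD, Cdk4, CycE and Cdk2, were called in no comparison by either tool. DESeq2 also called ago higher in RMCE-2 than in RMCE-1 (log2 fold change 0.35, adjusted p = 0.000873, against 0.0564 by edgeR). Of the 3 genes for turnover of E2f1 protein in S phase (Cul4, pic and l(2)dtl), edgeR called 0 in each comparison, with at most 1 at an unadjusted p under 0.05. DESeq2 called pic lower in RMCE-2 than in RMCE-1 (log2 fold change -0.29, adjusted p = 0.0196 against 0.0768 by edgeR). pic encodes the DNA damage-binding subunit of the Cul4 ligase and ran from 184 to 237 CPM, and Cul4, the scaffold, from 85.1 to 97.3 CPM.

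**Figure D5:**
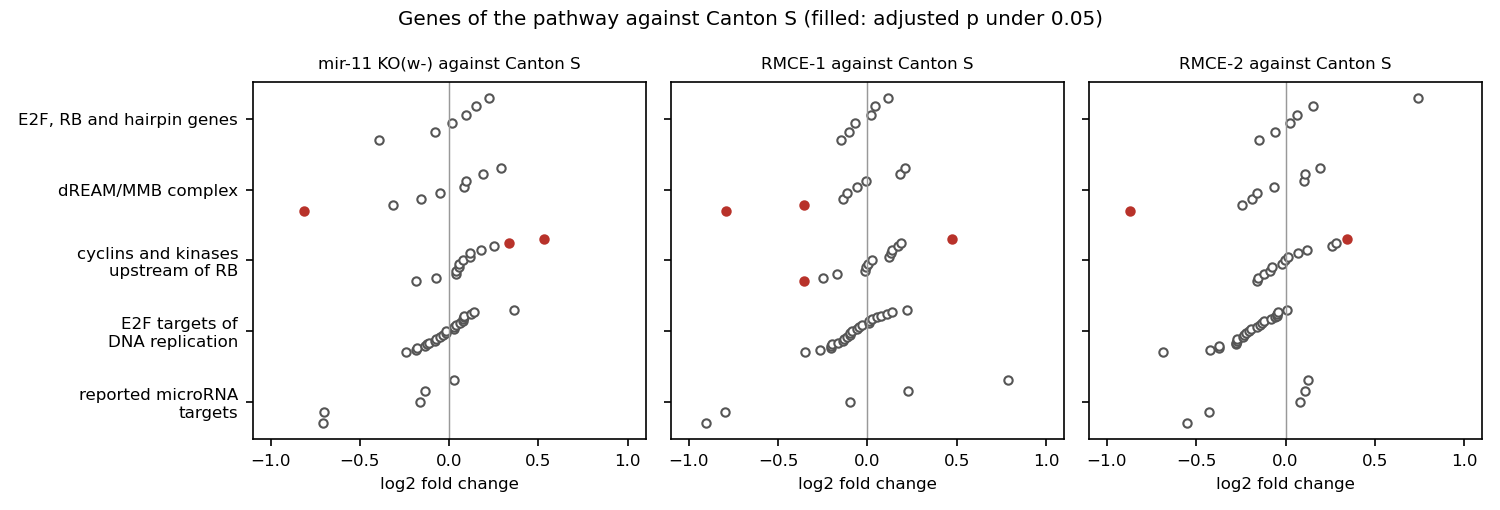
Log2 fold change (x axis) of single genes of 5 lists in the 3 comparisons with Canton S; filled points have an adjusted p under 0.05. The filled points at the far left of the second list are lin-52, and of the DNA replication genes 22 of 23 lie below 0 in RMCE-2.

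Genes of DNA replication are the classical targets of E2f1, and edgeR called 0 of 23 in any comparison. DESeq2 called 1, Mcm7 (a helicase subunit), lower in RMCE-2 than in Canton S (log2 fold change -0.43, adjusted p = 0.00833). Relative to Canton S, 12 of 23 had a log2 fold change below 0 in mir-11 KO(w-), 15 in RMCE-1 and 22 in RMCE-2, where 48.5, 48.5 and 49.9% of all genes did. The list's median was -0.02, -0.08 and -0.21. Relative to mir-11 KO(w-), 20 lay below 0 in RMCE-1 and 22 in RMCE-2, where 52 and 50.6% of all genes did, with list medians of -0.09 and -0.19. In RMCE-2 against RMCE-1, 22 lay below 0, where 52.4% of all genes did, with a list median of -0.13. These comparisons share libraries with the others. At an unadjusted p under 0.05, 11 of 23 passed in RMCE-2 against Canton S and 11 against mir-11 KO(w-), where 19.4% and 13.2% of all genes did. In RMCE-2 against RMCE-1, 4 passed, where 16% of all genes did.

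RnrL, the large subunit of ribonucleotide reductase and the most abundant of the list, stood at 114 and 127 CPM in Canton S, at 105 and 108 in mir-11 KO(w-), then at 98.8 and 111 in RMCE-1 and finally at 109 and 90.6 in RMCE-2 (log2 fold change in RMCE-2 against Canton S -0.28, SE 0.11, edgeR adjusted p = 0.21). dpa, the Mcm4 subunit of the replicative helicase, stood at 85.4 to 91.8 CPM as stock means and differed by log2 -0.05 in RMCE-2 against Canton S (edgeR adjusted p = 0.83). RMCE-2 had the lowest E2f1, which was not called, and was the stock where most replication genes lay below the others, with none called by edgeR. A link between E2f1 RNA and these genes was not tested, nor was the part of attached tissues.

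Reported microRNA targets were read in the same way, and 0 of 5 were called in any comparison by edgeR or DESeq2, with 1 at an unadjusted p under 0.05 in RMCE-2 against RMCE-1 and 0 in the other 5 pairs. That gene was Cbl, which differed by log2 0.205 there (SE 0.07, adjusted p = 0.209 by edgeR). Per pair of stocks edgeR called 0.352 to 6.06% of all genes, and 9.03 to 23.2% had an unadjusted p under 0.05. With 5 genes such counts lie near these shares and are no result about the targets. rpr stood at 7.89 and 8.76 CPM in Canton S, at 8.35 and 6.53 in mir-11 KO(w-), then at 7.24 and 21.7 in RMCE-1 and finally at 11.2 and 7.03 in RMCE-2. The single high value was RMCE-1 replicate 2, the library with the most fat body and salivary transcripts, and hid was highest there too (71.6 CPM against 46.1 to 58.8 CPM elsewhere). The part of those tissues in these values was not tested. grim and skl were low, with 6 to 50 and 7 to 63 counts per library.

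Between mir-11 KO(w-) and Canton S, where a loss of miR-11 is labelled, the log2 fold changes were -0.16 for rpr (SE 0.52), -0.13 for hid (SE 0.16), -0.70 for grim (SE 0.86) and -0.71 for skl (SE 0.88). Cbl in RMCE-2, where the mir-998 reads were highest, differed by log2 0.11 from Canton S (SE 0.07, edgeR adjusted p = 0.446) and by 0.08 from mir-11 KO(w-) (SE 0.07, 0.658).

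Other hairpins are known to carry the same seed, the bases by which a microRNA recognises targets. Of 12 hairpins of the miR-11 family, mir-2a-1 and mir-2a-2 passed the filter, and 0 were called by edgeR or DESeq2, with 1 at an unadjusted p under 0.05 (mir-2a-1 in RMCE-2 against mir-11 KO(w-), log2 fold change 1.08, edgeR adjusted p = 0.271). mir-2a-1 had 26 and 27 reads in Canton S, 13 and 18 in mir-11 KO(w-), then 25 and 13 in RMCE-1 and finally 24 and 34 in RMCE-2. mir-2a-2 was the most covered, with 264 reads in all, followed by mir-2a-1 with 180, mir-2b-2 with 55, mir-308 with 39, mir-2c with 21 and mir-2b-1 with 13. The 3 mir-6 hairpins had 0 reads in 8 libraries. For the miR-998 family, mir-995 had 40 reads and mir-285 had 14, both fewer than the 133 of mir-998. The 7 genes of microRNA processing and silencing (drosha, pasha, Ranbp21, Dcr-1, loqs, AGO1 and gw) held 0 calls by edgeR or DESeq2, with at most 1 at an unadjusted p under 0.05 per comparison. Of the most abundant, AGO1, the Argonaute that binds microRNAs, ran from 478 to 556 CPM, and gw, the GW182 protein of the silencing complex, ran from 617 to 662 CPM over the 8 libraries.

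The genes most like each member across the 8 libraries were found by Pearson correlation of log2 CPM among 8173 genes, or 8174 for mir-998, with a mean of at least 5 CPM. They were pzg (r = 0.974) and Polr2L (0.947) for E2f1, Gdi (0.983) and eff (0.970) for E2f2, and Psf3 (0.984) and snRNA:U11 (0.972) for Dp. For Rbf they were Tsp74F (0.958) and aop (0.949), for Rbf2 sip2 (0.890) and Dbp45A (0.877), and for mir-998 fbp (0.978) and CG9628 (0.966). No member was among them. Among pairs of members the highest positive value was that of E2f1 and Rbf2, at 0.598, and E2f1 with Dp had 0.161. With 8 libraries of 4 stocks and so many genes searched, high values arise easily, and they are given as a description.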

How the data were processed

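What the authors deposited are whole-number read counts, 1 column per library, which were not normalized as far as their values show. Per the labels' protocols, Trizol RNA was depleted of ribosomal RNA, made into directional libraries and sequenced as single reads of 50 bp. The submitters' processing notes name TopHat2, featureCounts, Subread, FastQC and CASAVA 1.8.2. The sources used here state no genome build, annotation or strand setting for the counting. Names and exon lengths came from BDGP6.54 (Ensembl 115), which placed 15002 of 15682 identifiers.

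Counts were tested in R 4.3.3 with edgeR 4.0.16: filterByExpr (11068 genes kept, 4614 left out), TMM scaling (factors 0.9711 to 1.036), and robust quasi-likelihood fits of stock means to all 8 libraries (4 residual degrees of freedom). Calls needed a Benjamini-Hochberg adjusted p under 0.05. CPM are per 1000000 counts in tested genes after scaling. Tested genes held 99.46% of the counts in Canton S replicate 1 and 99.96 to 99.97% in every other library. Intervals are 95%, and 3 counts served as the limit of a count of 0. A standard error is the log2 fold change divided by the square root of F. The steps were tested on simulated data. P-values measure only the spread between these samples. DESeq2 1.42.0, other scalings and filters, left-out libraries and a replicate block were alternatives. Named genes are the members, up to 4 called or 2 abundant genes per list, all reported targets, seed-family hairpins with 10 counts or more, and the 2 most similar genes per member. Mcm7 and Hml were added after their DESeq2 values were seen. CG15772, Mpp6, Fsn, mor and asRNA:CR46055 were added after their overlaps were seen. Of 25 listed replication genes 23 matched a row. Members and lists were chosen with earlier results of these data known. Replicates are labelled biological, with nothing on separate cultures, and differed by more than sampling noise in every stock (chi-square per degree of freedom 9.74 to 51).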

Additional observations from a re-analysis of the deposited data

How the results depend on the processing

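In 16 alternatives per pair of stocks and 15 for the 4-stock test, 0 members were called, as in the results above. The adjusted p of E2f1 in RMCE-2 against mir-11 KO(w-) ranged from 0.0899 to 0.709, of Dp in mir-11 KO(w-) against Canton S from 0.068 to 0.449, and of mir-998 in RMCE-2 against mir-11 KO(w-) from 0.222 to 0.841, with directions kept. The log2 fold change of Rbf in RMCE-2 against Canton S reversed to -0.00371 without Canton S replicate 1 and to -0.00225 without both it and RMCE-1 replicate 2, and reached 0.136 without Canton S replicate 2. The ratio of mir-998 to E2f1 in RMCE-1 against Canton S (0.933) ranged from 0.792 to 1.13 with a library left out, above 1 without Canton S replicate 2. Of 112 recomputed stock levels of members, 8 moved by more than 1 SD. Same-numbered replicates did not deviate together (correlations -0.349 to 0.371), so the numbers name libraries only. With the replicate block, 0 members were called, and the calls of stg (0.0564) and ago (0.0663) in RMCE-1, HDAC1 (0.0865) in RMCE-1, Rca1 (0.0855) in mir-11 KO(w-) and CycB3 (0.0927) in RMCE-2 were lost. A left-out library leaves a lone sample that is assumed to vary like the others. The ct call in mir-11 KO(w-) was lost too (0.0638). Over all genes the calls ranged from 41 to 1078, 143 to 884, 94 to 620, 4 to 177, 3 to 254 and 17 to 422 in the order of comparisons above (526, 671, 398, 39, 64 and 186 as reported), and from 124 to 1222 for the 4-stock test (607). The lowest count fell to fits without a mir-11 KO(w-) replicate in 4 of these 7, while DESeq2 gave the highest in 5. Depth limits mir-11 (3 reads in all) and mir-998 (9 to 31 per library).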
